A study of Mus musculus with 12 samples.

Results

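The repressor genes of the Id family (Id1, Id2, Id3 and Id4) and of the Hes and Hey families (Hes1, Hes5, Hes6, Hey1 and Hey2) were followed in cerebellar astrocytes through the first postnatal weeks. They were chosen by gene symbol, 9 of the 24421 entries of the expression table, and all 9 reached a normalized count of 10 in 3 or more libraries, the minimum for testing that 15464 genes met. Hes5 reached this count in every P1 and P7 library but not in every P14 or P28 library. RNA sequencing had been performed on cells sorted for green fluorescent protein (GFP) from the cerebellum of Aldh1l1-GFP reporter mice on a C57/BL6J background, with males and females both used, with 3 libraries for each of 4 ages: P1, P7, P14 and P28, named for the day after birth. In these mice the regulatory sequence of Aldh1l1, a folate enzyme gene used as a broad astrocyte marker, drives GFP, so any cell in which it is active can enter the sort. The sources do not say whether the 3 libraries of a time point came from different animals, and the tests below measure the spread between these libraries.

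Id proteins carry a helix-loop-helix domain without the basic region that contacts DNA, and they hold E proteins and their proneural partners in dimers that cannot bind DNA. Their genes are classical targets of bone morphogenetic protein (BMP) signalling. Hes and Hey proteins are basic helix-loop-helix repressors that recruit Groucho/TLE corepressors, and several of their genes are transcribed when the Notch intracellular domain joins Rbpj on DNA. In the developing cerebellum both families are known for keeping radial glia, Bergmann glia and progenitors from becoming neurons.

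The promoters of Hes5, Hey2 and Id4 are shown first, because these members differed in the direction or the timing of their change and the Notch and BMP pathways are known for the motifs they act through. Each line is the 250 bases before the transcription start annotated by RefSeq in GRCm38.p6, written 5′ to 3′ on the gene's strand. Hes5 lies on the plus strand (chr4:154960673-154960922), Hey2 on the minus strand (chr10:30842784-30843033) and Id4 on the plus strand (chr13:48260866-48261115). Capitals mark the Rbpj core TGGGAA, on either strand, in Hes5 and Hey2, and the GC-rich Smad sequence GGCGCC in Id4.
Hes5: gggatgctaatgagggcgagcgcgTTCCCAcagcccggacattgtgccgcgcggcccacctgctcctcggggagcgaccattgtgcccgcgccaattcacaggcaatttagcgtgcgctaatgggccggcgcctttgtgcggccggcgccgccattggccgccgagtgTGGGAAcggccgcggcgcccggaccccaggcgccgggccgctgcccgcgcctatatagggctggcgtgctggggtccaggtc
Hey2: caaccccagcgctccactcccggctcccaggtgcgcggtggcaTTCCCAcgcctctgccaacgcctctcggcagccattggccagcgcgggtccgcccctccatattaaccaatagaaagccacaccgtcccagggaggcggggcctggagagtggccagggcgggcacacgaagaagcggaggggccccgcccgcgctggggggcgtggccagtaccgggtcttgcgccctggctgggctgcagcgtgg
Id4: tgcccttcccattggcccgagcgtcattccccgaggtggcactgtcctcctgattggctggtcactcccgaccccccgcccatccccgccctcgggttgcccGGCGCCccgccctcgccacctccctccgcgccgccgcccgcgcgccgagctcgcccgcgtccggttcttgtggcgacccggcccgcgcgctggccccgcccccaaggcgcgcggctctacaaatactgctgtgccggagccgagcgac
The Hes5 window held 2 Rbpj cores, 226 and 82 bases before the start, and 4 copies of GGCGCC, which are left in lower case. The Hey2 window held 1 Rbpj core, 207 bases before the start. The Id4 window held 1 copy of GGCGCC, 148 bases before the start, and 1 Rbpj core in lower case, 245 bases before it. Of 32851 RefSeq promoter windows of this length, searched on both strands, 21.6% held TGGGAA and 9.6% held GGCGCC, and no 2 matches overlapped in the windows shown. RefSeq promoter entries were matched for 6 of the 9 members, and the Id3 window and both Hes6 windows held neither motif, whereas that of Id2 held 1 copy of GGCGCC. A match describes letters and not a bound site.

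Sequencing depth was 6399499 to 14733985 reads on genes per library, and 3 reads corresponded to a normalized count of 1.85 to 4.38 depending on the library. The log2 values of libraries of 1 time point correlated at 0.95 to 0.965 at P7 and at 0.849 to 0.862 at P28, so the P28 libraries differed more from each other. Astrocyte and Bergmann glia markers were present throughout, with all 11 above 0 in every library and a summed level of 70328 to 85520 (P1), 31329 to 59384 (P7), 152098 to 195342 (P14) and 351933 to 413935 (P28). Series of means below run in order of age, from P1 to P28, and Aldh1l1 itself stood at 5008 ± 1320 (SD, n = 3), 1470 ± 525, 1879 ± 86.1 and 2921 ± 446. Other cell types were also represented: the 6 oligodendrocyte markers summed to 1474 to 2282 (P1), 21421 to 32855 (P7), 306538 to 365995 (P14) and 101324 to 141243 (P28). The 6 ependymal and choroid plexus markers summed to 831 to 1934 (P1), 47845 to 126995 (P7), 1097 to 108853 (P14) and 17694 to 181663 (P28), with the choroid plexus gene Ttr alone at means of 399, 77688, 56851 and 99788, and the lowest P14 and P28 sums were both in replicate 3. The 8 proliferation genes summed to 9061 to 15546 (P1), 20350 to 25915 (P7), 1325 to 1941 (P14) and 586 to 915 (P28). In bulk RNA, fewer cells of a type and less RNA per cell cannot be told apart. The part of these cell types in the results below was not tested, and marker levels set beside a member describe the libraries only.

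Across the 4 time points, Id4 rose and Hes1, Hes5, Hey2 and Id3 fell, while Hey1, Id2 and Hes6 were not called between the first and the last. Id1 was called lower between these at an adjusted p of 0.0496, a call that was lost under most other settings. For 7 of the 9 genes P1 had the highest mean, as it had for 22.6% of all genes tested. Hes6 was highest at P7 and Id4 at P28. A moderated F test in limma over the 4 time points, with Benjamini-Hochberg adjustment over all genes tested, called 7 of the 9 at an adjusted p under 0.05, against 43.8% of all genes tested, and left Id1 (adjusted p = 0.131) and Hey1 (adjusted p = 0.257) uncalled. Unless another setting or a left-out library is named, log2 fold changes below are differences of mean log2(normalized count + 1), which understates the change of low genes. With the same exception, adjusted p-values come from the same limma fit to the 12 libraries.

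**Figure D1:**
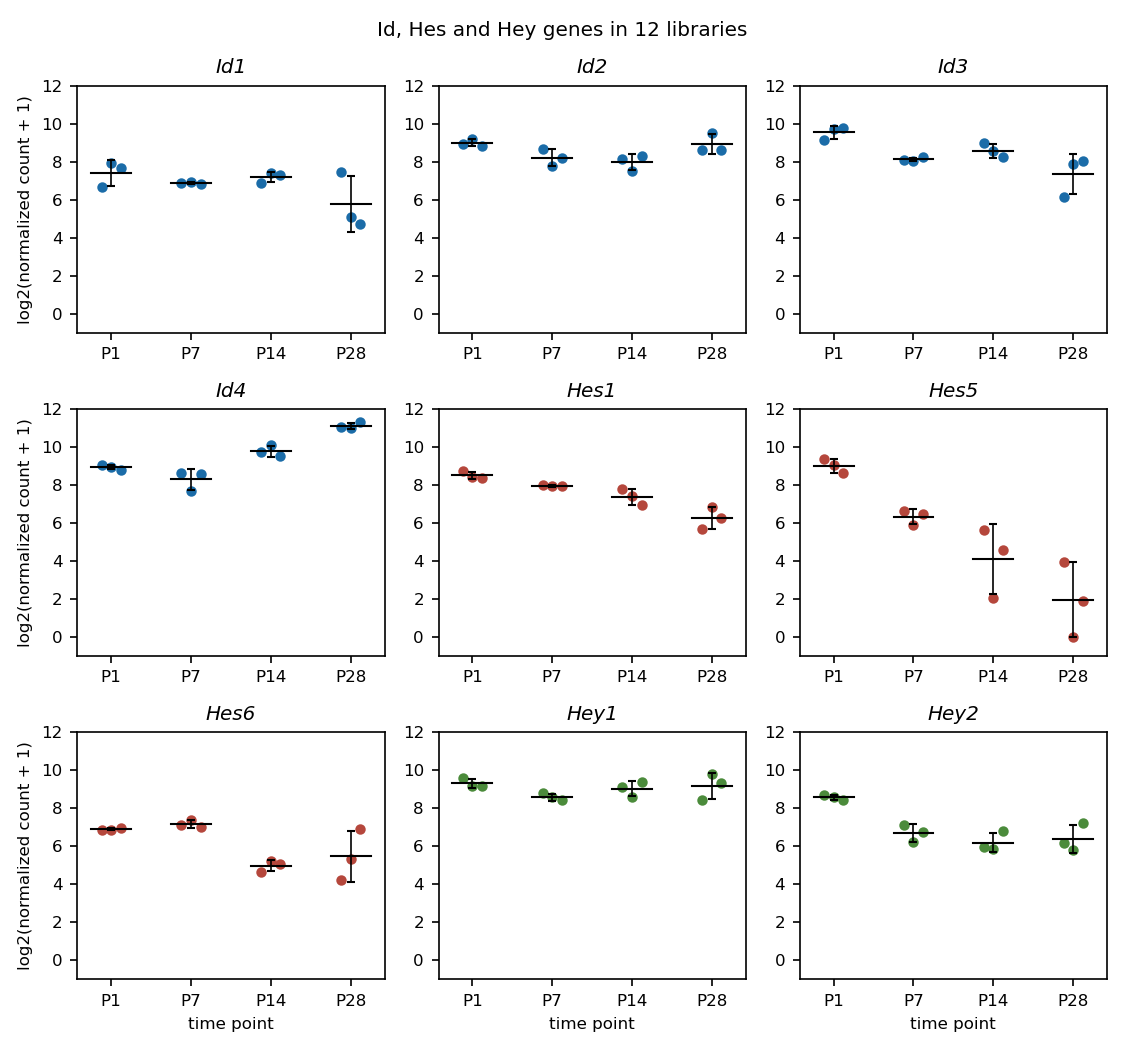
Each panel plots 1 gene, with time point on the horizontal axis and log2(normalized count + 1) on the vertical axis; points are the 3 libraries of a time point, and the horizontal and vertical lines are their mean and SD. Id4 is highest in the 3 P28 libraries, Hes5 falls from a normalized count of 399 or more at P1 to 14.6 or less at P28, and Id1, Id3 and Hes6 spread widely at P28.

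Id4 was the member that rose. In the order of the libraries, its normalized counts were 526, 494 and 451 (P1), 401, 203 and 389 (P7), 859, 1097 and 735 (P14), and 2123, 2046 and 2546 (P28). Every P7 library lay below every P1 library, every P14 library above both, and every P28 library above every other library. From P7 to P14 Id4 rose by a log2 fold change of 1.48 ± 0.26 (SE, adjusted p = 8.59e-04), and from P14 to P28 by a further 1.33 ± 0.26 (adjusted p = 0.00457). From P1 to P28 the log2 fold change was 2.18 (95% interval 1.64 to 2.73, adjusted p = 1.86e-05), with the mean of the normalized counts 4.56-fold higher. The first step, from P1 to P7, was -0.63 and did not pass (adjusted p = 0.178). Both rises and the P28 to P1 difference were called with any single library left out. The astrocyte marker sum rose over both steps. Of its 11 markers, 8 were called higher and 1 lower from P7 to P14, and 9 higher and 0 lower from P14 to P28. The oligodendrocyte marker sum also rose from P7 to P14, with all 6 markers called higher, and fell from P14 to P28. Id4 (chr13:48261228-48266026) overlaps the antisense gene A330033J07Rik, and strand use in the counting is not stated. A330033J07Rik had means of 23.7, 17.3, 44.1 and 63.2 over the 4 ages, below those of Id4 at each.

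Id3, a close relative and a known BMP target, fell. The libraries of each age had normalized counts of 576, 842 and 887 (P1), 278, 267 and 300 (P7), 503, 373 and 301 (P14), and 70.1, 235 and 268 (P28). The P1 libraries were all above the other 9, and the P28 libraries were all below the P14 libraries but overlapped those of P7. From P1 to P28 Id3 fell by 2.19 on the log2 scale (SE 0.42, adjusted p = 0.00104), with the mean 4.02-fold lower, and this call held with any single library left out. Without P28 replicate 1, the lowest library, the fall was 1.59 on the log2 scale. No single step passed: the first was -1.42 (adjusted p = 0.052), the second 0.45 (adjusted p = 0.517) and the third -1.22 (adjusted p = 0.0647). Under other settings the first step was called: edgeR (adjusted p = 0.0403), DESeq2 (0.00502), a pseudocount of 10 (0.0385), at least 10 reads in every library (0.0376) and only the 2 time points compared (0.00185). It was also called without P28 replicate 1, 2 or 3. The third step was called with library totals (0.0265) and without P28 replicate 2 or 3.

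Id1, a BMP target that is also expressed in endothelial cells, had normalized counts of 99.7, 248 and 204 (P1), 117, 120 and 115 (P7), 119, 167 and 156 (P14), and 175, 33.0 and 25.7 (P28). At P28 replicate 1 was within the range of P1, and the others lay below every library of the earlier ages. The P28 to P1 difference was -1.67 (SE 0.62, adjusted p = 0.0496). This call was lost with 10 of the 12 libraries left out in turn, all except P1 replicate 1 and P28 replicate 1, and without the latter the difference was -2.52. It was also lost under 8 of 10 alternative settings, namely edgeR (adjusted p = 0.161), DESeq2 (0.102), a pseudocount of 0.1 (0.0533) or 10 (0.052), TMM scaling (0.0514), no filter on low values (0.0604), only the 2 time points compared (0.17) and the replicate block (0.0654). Without P28 replicate 1 the difference from P14 was -2.28 (adjusted p = 0.00568), compared with -1.43 (adjusted p = 0.134) in all libraries. In the same library order the 8 endothelial markers summed to 791, 3687 and 1135 at P1, the same order as Id1. At P7 they summed to 2690, 10662 and 1770, while Id1 ranged from 115 to 120. They summed to 5905, 6752 and 6866 at P14 and to 3896, 4937 and 5632 at P28, lowest there in the library where Id1 was highest. Their part in the Id1 values was not tested.

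Id2, an inhibitor of the same kind that is expressed in glia and neurons, was lower at P14 than at P1. In the libraries Id2 had normalized counts of 500, 588 and 457 (P1), 407, 221 and 296 (P7), 285, 182 and 317 (P14), and 395, 745 and 399 (P28). The P28 libraries were above all P14 libraries and overlapped those of P1. The P14 to P1 difference was -1.01 on the log2 scale (adjusted p = 0.0405). Between these ages 5 of the 9 members were called lower (Id2, Hes1, Hes5, Hes6 and Hey2), with 9.99% of all genes tested. Calls of P14 against P1 were not checked under other settings or with libraries left out. The rise of Id2 from P14 to P28 of 0.94 did not pass (SE 0.32, adjusted p = 0.0669). Between P1 and P28 the difference was -0.06, with a 95% interval of -0.76 to 0.63.

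The makeup of the Id family shifted from Id3 to Id4. Per kilobase of exon, which allows levels of different genes to be compared, Id3 made up 46.1% ± 4.13 (SD, n = 3) of the summed Id level at P1 and 10.8% ± 5.70 at P28. Id4 made up 14.2% ± 3.54, 17.9% ± 4.02, 33.8% ± 5.36 and 60.2% ± 6.55 over the 4 ages. The per-kilobase level of Id4 was 0.237 to 0.425 times that of Id3 in the P1 libraries and 4.06 to 14.1 times that of Id3 in the P28 libraries, and it was the higher of the pair in 0 of 3, 0 of 3, 2 of 3 and 3 of 3 libraries at the 4 time points. In TPM, a per-kilobase level scaled to the same total in each library and computed here from the normalized counts, the summed Id level was 480 ± 79.2, 249 ± 31.6, 301 ± 21.7 and 349 ± 4.83. The course of such sums over the ages depends on this scaling. Id2, for example, had means of 211 at P1 and 210 at P28 in normalized counts per kilobase, but 109 and 75.8 in TPM.

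**Figure D2:**
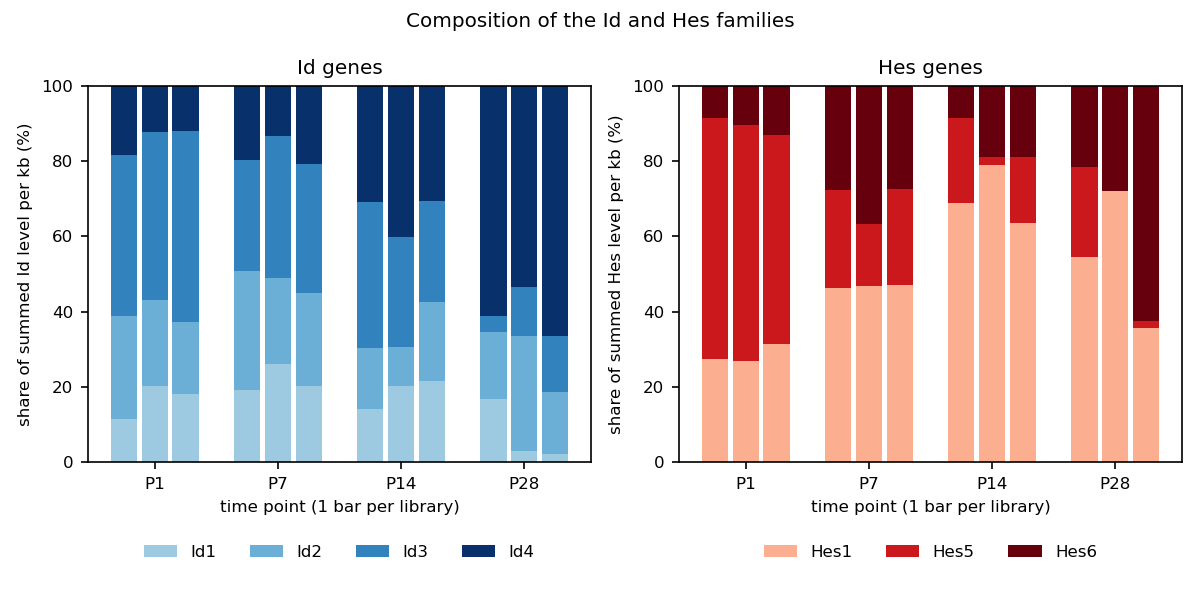
Each bar is 1 library, grouped by time point on the horizontal axis, and its segments give the share in percent of the summed per-kilobase level of Id1 to Id4 (left) or of Hes1, Hes5 and Hes6 (right). The Id4 segment grows from a mean of 14.2% at P1 to 60.2% at P28, and the Hes5 segment shrinks from 60.8% to 8.61%.

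Hes5, the repressor most directly tied to Notch in neural progenitors, had the largest log2 fold change of the members between P1 and P28. The libraries held normalized counts of 666, 530 and 399 (P1), 97.9, 57.6 and 89.1 (P7), 48.7, 3.17 and 22.8 (P14), and 14.6, 0 and 2.70 (P28). The P1, P7 and P14 libraries did not overlap, and those of P28 overlapped P14. The value of 0 came from a library in which 3 reads would have given 3.54, and the P14 library at 3.17 held 3 reads, so differences among the lowest of these values were not detectable at this depth. From P1 to P28 Hes5 fell by 7.08 on the log2 scale (SE 0.99, adjusted p = 8.55e-05), with the mean 92.1-fold lower. The P28 mean rested on replicate 1, and the log2 fold change was -8.08 without it and -6.10 without P28 replicate 2, the library at 0. The size of this fall also depended on the pseudocount, at -8.34 with 0.1 and -5.18 with 10, while the call held in each. The steps were -2.69 (adjusted p = 0.128), -2.24 (adjusted p = 0.132) and -2.14 (adjusted p = 0.162), and none passed alone, whereas P14 against P1 did (-4.94, adjusted p = 0.0026). Under other settings the first step was called: DESeq2 (adjusted p = 0.00365), a pseudocount of 10 (0.0086) and only the 2 time points compared (0.00059). The second was called with a pseudocount of 10 (0.0497) and the third without P28 replicate 1 (0.034).

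Hes1, which acts beside Hes5 in progenitors and also answers to other signals, fell as well. Normalized counts of Hes1 were 428, 339 and 336 (P1), 260, 243 and 246 (P7), 222, 170 and 124 (P14), and 49.7, 113 and 75.7 (P28). Each time point lay entirely below the one before it. From P1 to P28 Hes1 fell by 2.26 on the log2 scale (SE 0.36, adjusted p = 2.82e-04), with the mean 4.63-fold lower, and the call held with any single library left out. Of the single steps only that from P14 to P28 passed, at -1.14 (SE 0.36, adjusted p = 0.0489). That call was lost with 10 of the 12 libraries left out in turn, all except P14 replicate 3 and P28 replicate 2 (adjusted p = 0.0592 to 0.163 among the 10), and under edgeR (adjusted p = 0.0585), a pseudocount of 10 (0.0569), no filter on low values (0.0559), only the 2 time points compared (0.296) and the replicate block (0.0657).

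Hes6, which lacks the usual repressor activity of the family and opposes Hes1, fell between P7 and P14. In the libraries it had normalized counts of 116, 116 and 123 (P1), 137, 169 and 127 (P7), 24.4, 36.0 and 32.6 (P14), and 17.5, 38.9 and 118 (P28). The P14 libraries were all below those of P1 and P7, and at P28 replicate 3 reached the level of P1 while replicate 1 was below every P14 library. From P7 to P14 Hes6 fell by 2.19 on the log2 scale (SE 0.61, adjusted p = 0.0192), with the mean 4.66-fold lower. The call was lost without P7 replicate 1 (adjusted p = 0.0626), P7 replicate 2 (0.0766), P7 replicate 3 (0.0562) or P14 replicate 1 (0.0609). Hes6 was also called lower at P14 than at P1 (-1.92, adjusted p = 0.038) and at P28 than at P7 (-1.70, adjusted p = 0.039). Neither comparison was checked under other settings or with libraries left out. Between P1 and P28 the difference was -1.42 (adjusted p = 0.0842), called with library totals (0.0226) and without P28 replicate 3 (0.00556). The 6 markers of cerebellar GABAergic interneurons summed to 2712 to 5798 at P7 and 300.4 to 424 at P14. All 6 fell over this step from P7 to P14, as did all 8 proliferation genes. The 6 granule neuron precursor markers summed to 8882 to 11095 at P7 and 2338 to 2997 at P14, with 3 called lower and 0 higher. At P28 the interneuron sum was 172 in the library where Hes6 was 118 and 464 in the library where it was 38.9. The part of these cell types in the Hes6 values was not tested.

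Among the Hes genes, Hes5 made up 60.8% ± 4.50, 22.7% ± 5.35, 14.1% ± 10.6 and 8.61% ± 13.3 of the summed per-kilobase level over the 4 ages. Hes1 was below Hes5 in all 3 P1 libraries, at 0.428 to 0.564 of its per-kilobase level, and above it in all 3 P7 libraries, at 1.77 to 2.83 times. The summed Hes level was 330 ± 59.2, 139 ± 6.16, 52.6 ± 14.8 and 27.0 ± 9.65 TPM.

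Hey2, a Notch target of the Hey type, fell between P1 and P7. Normalized counts of Hey2 were 417, 392 and 343 (P1), 138, 73.3 and 107 (P7), 61.4, 56.1 and 110 (P14), and 70.1, 55.4 and 150 (P28). All P1 libraries were above the other 9, which overlapped among themselves. From P1 to P7 Hey2 fell by 1.89 on the log2 scale (SE 0.46, adjusted p = 0.0212), with the mean 3.62-fold lower. It was the only member called in that step in the fit to all 12 libraries, while Id3 and Hes5 were also called under other settings, as given above. Over this step the ependymal and choroid plexus sum rose, with 1 of its 6 markers called higher and 1 lower. In library order that sum was 1387, 1934 and 831 at P1 and 60776, 126995 and 47845 at P7. It was 108853, 63393 and 1097 at P14 and 104570, 181663 and 17694 at P28. At P14 and P28 Hey2 was highest in the library with the lowest sum, whereas at P7 it was not and at P1 it was lowest there. The part of these cells in the Hey2 values was not tested. The call was lost without P1 replicate 1 (adjusted p = 0.098), P1 replicate 2 (0.0848), P1 replicate 3 (0.0529), P7 replicate 2 (0.111) or P7 replicate 3 (0.0732). From P1 to P28 the fall of 2.18 (adjusted p = 0.00231) was called with any single library left out. The later steps did not pass, at -0.50 (95% interval -1.49 to 0.49) and 0.21 (95% interval -0.78 to 1.20).

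Hey1, the close relative of Hey2, was not called in any of the comparisons in the fit to all 12 libraries. With only the 2 time points compared it was called lower from P1 to P7 (adjusted p = 0.0253). Hey1 had normalized counts of 762, 576 and 579 (P1), 440, 381 and 342 (P7), 567, 382 and 665 (P14), and 341, 889 and 636 (P28). The P7 libraries were all below those of P1, and the later libraries overlapped both. The step from P1 to P7 was -0.71 (adjusted p = 0.23), and P28 differed from P1 by -0.13 with a 95% interval of -0.82 to 0.55. Hey1 made up 69.9% ± 2.34, 83.9% ± 3.56, 91.0% ± 1.71 and 89.5% ± 5.45 of the summed per-kilobase level of the pair, and it was the higher of the pair in all 12 libraries.

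The counts of members called in each step are given here beside the shares of all genes tested. In the first step, P1 to P7, 0 of the 9 were called higher and 1 lower, with 3.47% of all genes tested called higher, 4.24% lower and 7.7% in all. In this step the libraries of both ages did not overlap for 8 of the 9, 7 of them lower and 1, Hes6, higher, compared with 18.2% of all genes lower and 20.1% higher. In the second step, P7 to P14, 1 was called higher and 1 lower, with 10.8% of all genes higher, 10% lower and 20.9% in all. In the third step, P14 to P28, 1 was again called higher and 1 lower, with 5.68% of all genes higher, 8.76% lower and 14.4% in all. Between P1 and P28, 1 was called higher (Id4, with 14.6% of all genes higher) and 5 lower (Id1, Id3, Hes1, Hes5 and Hey2, with 20% of all genes lower and 34.6% called in all). The Id1 call among these was lost under 8 of 10 alternative settings, as given above. With the study's threshold as it was read here (log2 fold change beyond 0.75 up or down, with p before adjustment below 0.05), 4 of the 9 passed in the first step and 6 in the third, with 14.2% and 24.1% of all genes. The median log2 fold change of the 9 was -0.71, -0.23, 0.14 and -1.67 in these 4 comparisons, and that of all genes tested was 0.04, -0.09, -0.12 and -0.24. When the values were rescaled to equal library totals, the median of all genes moved to 0.10, -0.34, -0.35 and -0.66. Relative to it, Id4 still lay above and Id3, Hes1, Hes5 and Hey2 below between P1 and P28, with the same calls for these genes. Hes6 was called lower as well with library totals (-1.85, adjusted p = 0.0226), compared with -1.42 (adjusted p = 0.0842) before the rescaling.

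**Figure D3:**
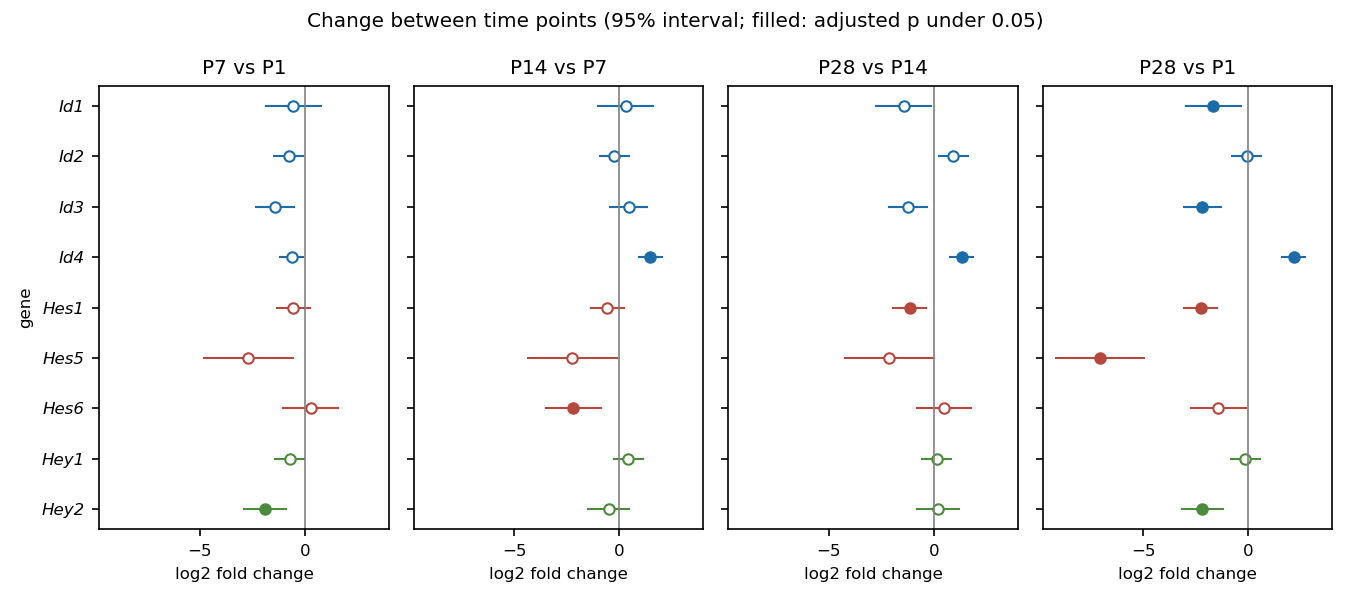
The panels give the 4 comparisons, with the log2 fold change of each gene on the horizontal axis, its 95% interval as a line and filled circles for an adjusted p under 0.05. Id4 lies to the right of 0 and is filled in the last 3 panels, and Id1, Id3, Hes1, Hes5 and Hey2 are filled to the left between P1 and P28.

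Ordered by mean level per kilobase, Id3 (429 ± 93.8) and Hes5 (390 ± 98.0) led at P1, and their ranges overlapped. At P7 Id3 (157 ± 9.39), Id2 (126 ± 38.3), Hes1 (123 ± 4.21) and Hey1 (119 ± 15.2) stood together, and Hes5 had dropped to eighth place. At P14 Id4 (233 ± 47.8) and Id3 (219 ± 57.2) led and did not differ beyond their spread. At P28 Id4 (582 ± 69.9) stood above Id2 (210 ± 82.6) and Hey1 (190 ± 84.1), while Hes5 (4.24 ± 5.70) was last. Over all 9 genes the sum was 955 ± 15.0, 464 ± 43.1, 433 ± 31.3 and 451 ± 39.1 TPM. This sum is scaled to the same total in each library, unlike the levels per kilobase before it, and its course can differ from theirs.

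Genes whose pattern was most like each member were sought among genes with a mean of at least 50, by Pearson's r of log2(normalized count + 1) over the 12 libraries. These points share time points and libraries, and r describes them only. For Id4 they were Slc4a4, a sodium bicarbonate cotransporter of astrocytes (r = 0.987), Tril (0.987) and Jam2 (0.985). For Hes1 they were Ldoc1l (0.966), the Notch ligand Dll1 (0.957) and Sik1 (0.957). For Hes5 they were Tanc2 (0.964), Smarca1 (0.96) and Pm20d2 (0.955), and for Hey2 Arl4c (0.958), Zxdc (0.949) and Prdm12 (0.944). For Id3 they were Meis2 (0.959), Col4a5 (0.936) and Ntng2 (0.924), for Id1 4921531C22Rik (0.95), Rita1 (0.922) and Pstpip2 (0.915), and for Hes6 Snhg5 (0.952), Pdzrn3 (0.95) and Lig3 (0.939). Likeness was lower for Id2, with Lrrc9 (0.888), Ppp1r9a (0.887) and Pdpn (0.887), and for Hey1, with Mok (0.897), Zfp64 (0.896) and Npepl1 (0.849). Between members r was 0.823 for Id3 and Hes1 and -0.808 for Id4 and Hes1.

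The Notch pathway was read from 33 genes, all of them tested. In the first step 2 were called higher and 6 lower, in the second 1 and 5, in the third 3 and 2, and between P1 and P28 3 and 7. The medians were -0.23, 0.21, -0.03 and -0.08. Of all genes tested, 3.47% were called higher and 4.24% lower in the first step, and 10.8% and 10% in the second. The shares were 5.68% and 8.76% in the third and 14.6% and 20% between P1 and P28. In either direction they were 7.7%, 20.9%, 14.4% and 34.6%, and the medians of all genes were 0.04, -0.09, -0.12 and -0.24. Lfng, a glycosyltransferase that modifies Notch receptors, was the most abundant of the list per kilobase, ahead of the protease genes Psenen and Adam10. It fell from 2381 ± 274 (SD, n = 3) at P1 to 599 ± 252 at P7 (-2.08, adjusted p = 4.59e-04) and stood at 2316 ± 509 at P14. The ligand gene Dll1 stood at 420 ± 199, 199 ± 92.1, 26.2 ± 14.7 and 6.73 ± 4.73. Its fall was called from P7 to P14 (-2.98, adjusted p = 0.00884) and between P1 and P28 (-5.94, adjusted p = 2.69e-05, and -5.25 without P28 replicate 1). Nrarp, a feedback inhibitor that Notch itself switches on, stood at 414 ± 78.7, 142 ± 20.4, 167 ± 46.2 and 17.5 ± 18.3 and was called lower from P14 to P28 (-4.25, adjusted p = 0.00913). For Nrarp the difference was -2.70 without P28 replicate 2 and -5.31 without P28 replicate 3, and the call was lost with only the 2 time points compared (adjusted p = 0.129). The receptor gene Notch1 and the effector gene Rbpj were singled out for their roles after their values were seen. Notch1 fell from 4789 ± 1584 to 1200 ± 59.5 between P1 and P7 (-1.95, adjusted p = 7.44e-05) and rose from 1629 ± 156 to 2849 ± 399 between P14 and P28 (0.80, adjusted p = 0.0182). Rbpj fell from 1208 ± 49.8 at P7 to 575 ± 161 at P14 (-1.10, adjusted p = 0.00433). The Dll1 call from P7 to P14 was lost with 1 of the 12 libraries left out, at an adjusted p of 0.0575.

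Of 7 other Hes and Hey type genes, 4 were tested. Bhlhe41, a circadian repressor of a related type, stood at 379 ± 58.6, 301 ± 90.6, 710 ± 96.2 and 1343 ± 368. It was called higher in the second step (1.27, adjusted p = 0.00332), in the third (0.89, adjusted p = 0.0373) and between P1 and P28 (1.80, adjusted p = 1.34e-04), and the third-step call was lost with 7 of 12 libraries left out in turn, with library totals (adjusted p = 0.095), with only the 2 time points compared (0.0893) and with the replicate block (0.0528). Heyl was the only other of the 4 called in any of the comparisons, lower between P1 and P28 (-1.50, adjusted p = 0.0428), and Bhlhe40 was not called, at 942 ± 375 at P1 and 584 ± 351 at P28. Among 5 Groucho/TLE corepressor genes, Aes, Tle4 and Tle1 were the most abundant per kilobase and none of these was called. Tle2 rose from 113 ± 45.8 at P7 to 313 ± 95.1 at P14 (1.49, adjusted p = 0.0185), a call lost with 3 of 12 libraries left out, and Tle3 fell from 1064 ± 38.1 at P1 to 427 ± 246 at P28 (-1.50, adjusted p = 0.00416).

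The BMP pathway was read from 26 genes, all tested. In the first step 0 were called higher and 3 lower, in the second 3 and 5, in the third 3 and 3, and between P1 and P28 2 and 11. The medians were -0.09, -0.21, 0.00 and -0.81. Of all genes tested, 7.7%, 20.9%, 14.4% and 34.6% were called in either direction, and their medians were 0.04, -0.09, -0.12 and -0.24. The receptor genes Bmpr1a and Bmpr2 and the extracellular modulator gene Twsg1 were the most abundant per kilobase. Smad9, one of the signal transducers, stood at 208 ± 3.40, 208 ± 24.9, 752 ± 116 and 1826 ± 199. Its rise was called from P7 to P14 (1.85, adjusted p = 2.4e-05). The inhibitory Smad gene Smad7 went from 270 ± 12.9 at P7 to 654 ± 70.9 at P14 and back to 213 ± 11.4 at P28 (-1.61 from P14, adjusted p = 0.00121). The ligand gene Bmp6 fell from 1130 ± 710 at P1 to 355 ± 33.5 at P7 (-1.49, adjusted p = 0.0296), a call lost with 5 of 12 libraries left out in turn. The antagonist gene Chrdl1 fell from 190 ± 21.9 at P1 to 25.5 ± 39.3 at P28 (-4.59, adjusted p = 0.00724). This call was lost under edgeR (-2.83, adjusted p = 0.0524), and the difference was -6.18 without P28 replicate 2 and -3.10 without P28 replicate 3.

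A further list held other basic helix-loop-helix genes, among them E proteins and proneural factors of the kind that Id proteins hold or Hes and Hey proteins repress. Of its 18 genes, listed as activators and E proteins but including Olig1, Olig2, Olig3 and Bhlhe22, 17 were tested. In the first step 7 were called higher and 1 lower, in the second 1 and 11, in the third 2 and 5, and between P1 and P28 1 and 11. The medians were 2.44, -3.12, 0.00 and -2.72, and with genes at 0 in all libraries of a time point set to their bound of 3 reads the last became -2.11. Of all genes tested, 7.7%, 20.9%, 14.4% and 34.6% were called in either direction, and their medians were 0.04, -0.09, -0.12 and -0.24. Neurod1, a differentiation factor of granule neurons, rose from 70.7 ± 51.0 at P1 to 1929 ± 557 at P7 (4.98, adjusted p = 3.25e-05). Neurog2, a proneural factor, stood at 140.0 to 259 in the P7 libraries and was at 0 in 2 of the 3 P14 libraries, and it was called lower (adjusted p = 2.07e-04). Nhlh1, a factor of newly formed neurons, stood at 501 ± 17.1 at P7 and 43.2 ± 52.5 at P14 and had no read in any P28 library, which is at least 10.8-fold lower than P14 against a floor of 3 reads per library. Its P14 libraries ranged from 5.29 to 103, and the bound was 3.31-fold without P14 replicate 3 and 15.6-fold without P14 replicate 2. The P14 to P28 call (adjusted p = 0.00695) was lost with a pseudocount of 10 (0.0736) and with only the 2 time points compared (0.0575). Olig1, which marks the oligodendrocyte lineage, stood at 2005 ± 452, 369 ± 113, 1733 ± 201 and 415 ± 80.8. The E protein genes Tcf3, Tcf4 and Tcf12 were singled out for their role after their values were seen. Tcf4 rose from 8991 ± 1690 at P1 to 20393 ± 2583 at P7 (1.19, adjusted p = 3.49e-04) and fell to 7087 ± 370 at P14 (-1.52, adjusted p = 1.11e-05), whereas Tcf3 was not called in any of the 4 comparisons and Tcf12 was called in 1, at 0.77 from P14 to P28 (adjusted p = 0.00594). Neurod1 is itself 1 of the 7 granule neuron markers. All 7 were called higher from P1 to P7, and their sum, which includes Neurod1, was 2348 to 4886 at P1 and 12431 to 14475 at P7.

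**Figure D4:**
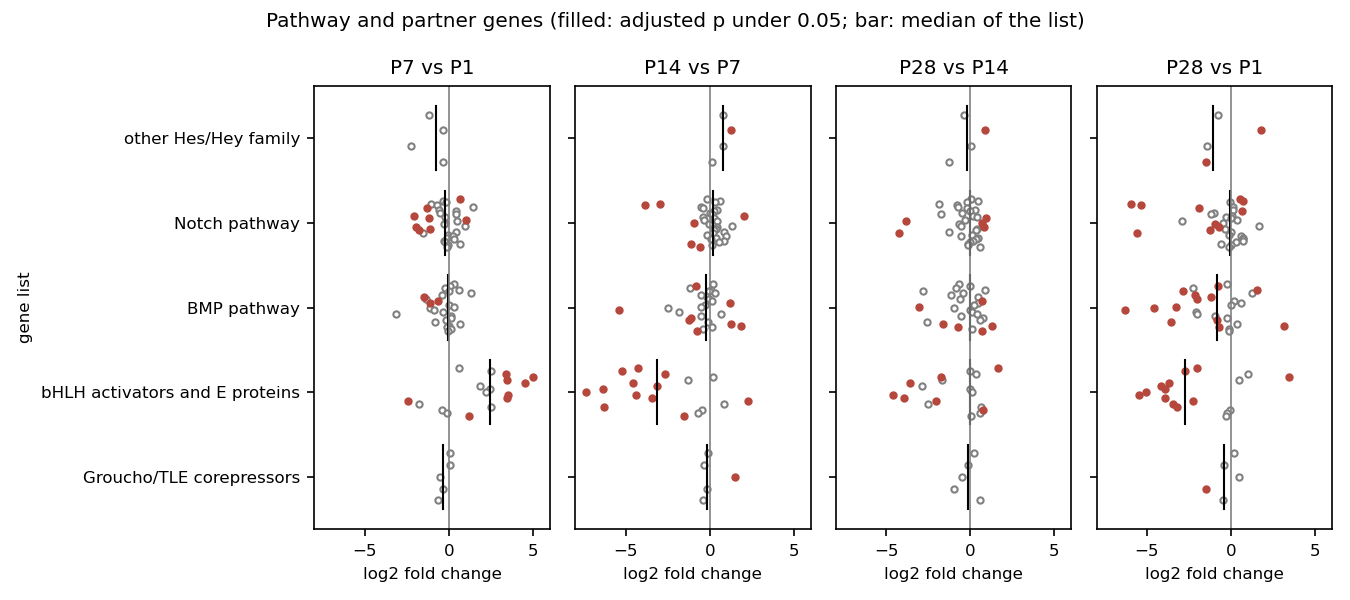
Each point is 1 tested gene of a list, placed by its log2 fold change in the comparison named above the panel, filled where the adjusted p was under 0.05, with the median of the list as a black bar. The median of the list of basic helix-loop-helix activators and E proteins is 2.44 from P1 to P7 and -3.12 from P7 to P14, while the medians of the Notch and BMP lists lie between -0.23 and 0.21 in each single step.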

How the data were processed

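RNA sequencing was performed by the authors on GFP-sorted cerebellar cells in 12 libraries, 3 each at P1, P7, P14 and P28. Libraries were made with the Trio RNA-Seq system and sequenced paired-end; the labels name polyA RNA as the molecule, whereas the methods describe total RNA as input. According to the submitters' processing notes, reads were checked with FastQC (0.11.7) and MultiQC (1.11), aligned to mm10 with STAR (2.5.0a) and normalized with DESeq2 (1.30.1). The methods give the same tools, with other versions of all but STAR, and counting on UCSC gene models. Strand use and the treatment of shared reads are not given in the sources used here. The deposited signal is thus counts divided by 1 size factor per library: dividing by the smallest value above 0 gave whole reads for 100% of values (tolerance 0.001). The column names all carry P28, and groups were taken from the labels. No column of per-sample values was left out.

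limma (3.58.1, R 4.3.3) was fitted to log2(value + 1), estimating 1 mean for each age and a variance trend, with Benjamini-Hochberg adjustment over the 15464 genes that reached 10 in 3 or more libraries. An adjusted p under 0.05 was required for a call. edgeR (4.0.16) and DESeq2 (1.42.0) on the recovered reads were alternatives, with other pseudocounts (0.1 and 10), scalings, filters, samples, the study's threshold, the replicate number as a block, and each library left out in turn. On the recovered reads edgeR called 1090, 3046, 1977 and 4920 genes from P1 to P7, P7 to P14, P14 to P28 and P1 to P28, and limma 1191, 3227, 2232 and 5350. The statistics were tested on simulated data.

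Levels per kilobase and TPM used the summed exon length of GENCODE M21, which may differ from the authors' gene models; symbols matched for 23350 entries, older symbols for 678 and none for 393. The 12 pairs of libraries of 1 time point all differed beyond sampling noise (chi-square per gene 9.92 to 76.3). The 9 members and the pathway and marker lists were chosen with earlier results of these data known. Besides the members, genes were named by rule: the 3 most abundant of each list per kilobase, the called gene of largest change in each comparison with a mean of at least 50, and the 3 genes most correlated with each member; a few were singled out otherwise, as stated there, and 1 gene named by the rule is not reported here. Intervals are at 95%, floors are 3 reads, and floors cover counting error only. Promoter sequences and motif shares came from RefSeq (GRCm38.p6).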

Additional observations from a re-analysis of the deposited data

How the results depend on the processing

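The number of members called differed from the 1 of the limma fit from P1 to P7 under edgeR (2), DESeq2 (3), a pseudocount of 10 (3), at least 10 reads in every library (2, without Hes5, so 8 were tested), only the 2 time points compared (5) and the study's threshold (4). Besides Hey2, Id3 was called under edgeR and with at least 10 reads in every library. Id3 and Hes5 were called under DESeq2 and with a pseudocount of 10, and Id2, Id3, Hes5 and Hey1 with only the 2 time points compared. From P14 to P28 the limma fit called 2, edgeR 1, a pseudocount of 10 1, no filter on low values 1, only the 2 time points compared 1, DESeq2 3 (with Id2, adjusted p = 0.0297), library totals 3 (with Id3, adjusted p = 0.0265) and the study's threshold 6. With each library left out in turn, 0 to 2 were called from P1 to P7, 1 to 2 from P7 to P14, 1 to 4 from P14 to P28, 5 to 6 between P1 and P28 and 5 to 9 over all time points. The causes of these differences were not tested.

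Directions changed for differences near 0 that were not called. For Id2 between P1 and P28 the log2 fold change was 0.030 under edgeR and -0.37 to 0.091 with 1 library left out, above 0 without P1 replicate 2, P28 replicate 1 or P28 replicate 3. For Id2 from P7 to P14 the range was -0.45 to 0.0089, above 0 without P14 replicate 2. For Hey1 from P14 to P28 it was -0.097 with library totals and -0.17 to 0.52 with 1 library left out, below 0 without P14 replicate 2 or P28 replicate 2, and between P1 and P28 it was -0.44 to 0.25, above 0 without P1 replicate 1 or P28 replicate 1. From P14 to P28 Hey2 was -0.027 with library totals and -0.21 to 0.50 with 1 library left out, and Hes6 was -0.21 to 1.12, both below 0 without P28 replicate 3.

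Same-numbered libraries of different time points were weakly related, with correlations of their deviations from -0.03 to 0.14 over 18 pairs and 1 pair over 0.1, although 9 of 12 libraries correlated best with a library of their own number. With the replicate block, 1 member was called from P14 to P28 in place of 2 (Hes1 lost, adjusted p = 0.0657), the Id1 call between P1 and P28 was lost (0.0654), as was the third-step call of Bhlhe41 (0.0528), and 1163, 3153, 2136 and 5334 genes were called in all over the 4 comparisons. Depth limits Hes5 at P14 and P28, where libraries held as few as 0 reads.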
